A study of Mus musculus with 3 samples.

Results

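Transcripts of 9 genes of the complement system, *C1qa*, *C1qb*, *C1qc*, *C3*, *C4b*, *Serping1*, *Cfb*, *Clu* and *Cd59a*, were followed through single-cell libraries of the mouse retina. They were chosen by symbol, all 9 were found among the 32287 features, and they were set against 47 other genes of the pathway. Each group is 1 droplet library of tdTomato+ cells sorted from 2 to 4 pooled retinas of Glast-CreERT2; R26-CAG-LSL-Tdt mice. In these mice tamoxifen (5 daily doses of 75 mg/kg from P20) switches on tdTomato in cells that use the *Glast* promoter, mainly Müller glia (MG), the radial glia of the retina. Control eyes received AAV7m8-GFAP-GFP-LacZsh at P28. CCA eyes received a mixture of 9 parts of a vector that raises cyclin D1 and lowers p27 and 1 part of the control virus. CCANT eyes received the CCA mixture, then NMDA, an agonist that kills inner retinal neurons, at P35 and TSA (trichostatin A), an inhibitor of histone deacetylases, at P37. These doses and days are those of the deposited sample labels, and the methods of the study give other values for some of them. All retinas were taken at P51, they had been chosen by their GFP, and every group had been injected with virus, so no library comes from an uninjected eye.

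Complement is a cascade of plasma and tissue proteins that tags cells, debris and synapses for removal. C1q, built from the chains encoded by *C1qa*, *C1qb* and *C1qc*, starts the classical pathway, which cleaves C4 and then C3, while factor B (*Cfb*) carries the alternative pathway that amplifies C3 cleavage. The C1 inhibitor (*Serping1*), clusterin (*Clu*) and CD59 (*Cd59a*) restrain the cascade at its start and at the membrane attack complex. In the retina C1q is known as a microglial product, whereas glia and vessels are known sources of later components and regulators.

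The authors kept 3758 control, 3890 CCA and 3278 CCANT cells after filtering on quality and tdTomato, and 3717, 3657 and 2841 of these were MG by their markers, with median depths of 24229, 20788 and 20516 UMIs (unique molecular identifiers, 1 per captured transcript). Wherever 3 values stand together they are in the order control, CCA, CCANT. The other classes came from all barcodes that passed the quality filters (9579, 10521 and 10890 cells), without the tdTomato requirement, and included 78, 42 and 40 microglia-like cells and 64, 57 and 58 cells of a cluster that joined microglia and macrophages. The sort selects against these immune classes, so their numbers say nothing about their frequency in the retina. Between 2 and 8 kept cells of any pair of libraries shared a barcode. Sex differed too: 3505 kept control cells carried Y-linked UMIs and none only *Xist*, 3859 kept CCA cells carried *Xist*, and CCANT held 1183 of the former and 1718 of the latter kind. Sex and treatment cannot be told apart between control and CCA.

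Because each condition is a single library, no difference between conditions could be tested. Levels are CPM, UMIs of a gene per 1000000 UMIs of all genes, summed over the cells of a class. Intervals in parentheses are exact 95% Poisson intervals for levels and ratios and exact 95% Clopper-Pearson intervals for shares, and they cover counting error only. In such sums fewer transcripts per cell and fewer cells with the transcript cannot be told apart.

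The C1q genes lie side by side on the minus strand of chromosome 4 (GRCm38, *C1qb* at 136880129 to 136886187, *C1qc* at 136889804 to 136893065 and *C1qa* at 136895917 to 136898803). *C3* (57203970 to 57228136), *Cfb* (34856374 to 34862518) and *C4b* (34728380 to 34743882) lie on the minus strand of chromosome 17, and the latter pair lies in the histocompatibility region. *Serping1* (84765387 to 84775444, minus) and *Cd59a* (104095801 to 104115354, plus) lie on chromosome 2 and *Clu* (65968483 to 65981547, plus) on chromosome 14. The RefSeq table (GRCm38.p6) gave the promoter, from 250 bases before to 50 after the start site, of 4 of the 9 genes. Those of *C1qb* and *C1qc*, which were highest in the microglial classes, and of *C3*, which had glial sources as well, are shown 5′ to 3′ on the strand of the gene. Capitals mark the PU.1 core GAGGAA, the motif of a myeloid transcription factor, which reads TTCCTC where it lies on the other strand.
C1qb, chr4:136886151-136886450 (minus): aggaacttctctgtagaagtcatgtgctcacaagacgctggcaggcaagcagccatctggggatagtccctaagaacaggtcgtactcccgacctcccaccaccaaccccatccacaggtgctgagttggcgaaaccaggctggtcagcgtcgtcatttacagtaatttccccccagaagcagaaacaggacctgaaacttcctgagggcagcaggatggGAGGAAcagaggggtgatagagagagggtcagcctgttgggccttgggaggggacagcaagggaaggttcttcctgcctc
C1qc, chr4:136892865-136893164 (minus): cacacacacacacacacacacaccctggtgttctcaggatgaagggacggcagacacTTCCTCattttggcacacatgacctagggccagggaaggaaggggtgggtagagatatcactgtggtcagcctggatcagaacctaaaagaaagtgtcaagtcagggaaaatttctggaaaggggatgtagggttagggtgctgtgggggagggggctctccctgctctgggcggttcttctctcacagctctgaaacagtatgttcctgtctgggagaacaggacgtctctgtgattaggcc
C3, chr17:57228087-57228386 (minus): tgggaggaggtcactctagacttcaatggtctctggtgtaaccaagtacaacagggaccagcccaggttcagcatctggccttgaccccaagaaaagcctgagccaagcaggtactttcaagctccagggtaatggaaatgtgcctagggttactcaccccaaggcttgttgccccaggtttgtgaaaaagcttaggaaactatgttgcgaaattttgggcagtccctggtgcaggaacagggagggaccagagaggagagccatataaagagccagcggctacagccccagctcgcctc
The core stood 30 bases before the start site of *C1qb* on the forward strand and 193 bases before that of *C1qc* on the reverse strand, and these letters were not in the *C3* window. Of 32851 promoters of the same length 28.3% hold it on either strand, so a match is common. Of the interferon motifs searched on both strands, neither the interferon-stimulated response element (3.44% of promoters) nor the gamma-activated site TTCNNNGAA (8.298%) was in these 3 windows, and the former stood 187 bases before the start of *Cd59a* on the reverse strand. The GAGGAA core was in the *Cd59a* promoter too, 62 bases before the start on the forward strand, although the microglial classes held few *Cd59a* UMIs.

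The C1q chains were microglial transcripts. In microglia-like cells *C1qa* stood at 7240.1 (7109.9 to 7372) CPM in the control, 6963 (6785 to 7145) with CCA and 6790.1 (6577 to 7009) with CCANT. *C1qb* stood there at 4341, 4705 and 4431 CPM and *C1qc* at 4042, 3945 and 3804. After thinning every cell to 8000 UMIs, *C1qa* was detected in 100%, 97.6% and 100% of these cells. The cluster of microglia and macrophages came next, with a sum of the chains of 10475, 11683 and 11579.8 CPM. These microglial clusters were 1.48%, 0.941% and 0.8999% of the filtered cells and held 71.9%, 65.8% and 66.5% of all C1q UMIs. A further 20.7%, 27.7% and 25.1% lay in clusters that carried the markers of more than 1 class. No complement gene was used for clustering.

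The C1q level of microglia-like cells was close in the 3 libraries. Summed over the chains it was 15623, 15612 and 15025 CPM. On the log2 scale CCA over control gave −0.00 (−0.03 to 0.03), and CCANT over control gave −0.06 (−0.09 to −0.02). The class is not uniform, since it joins a sub-cluster with more *Siglech*, a marker of microglia (35, 22 and 34 cells), and one with more *Cxcl13*, a chemokine (43, 20 and 6 cells). Both genes were found in both. *Siglech* was at 305, 335 and 454 CPM in the *Siglech* sub-cluster and 46.7, 190.2 and 52.6 CPM in the *Cxcl13* sub-cluster. *Cxcl13* was at 229, 1220 and 140 CPM in the *Siglech* sub-cluster and 447, 4762 and 1096 CPM in the *Cxcl13* sub-cluster. Summed C1q stood at 13647, 16494 and 13837 CPM in the *Siglech* sub-cluster and at 16912, 14665 and 19706 CPM in the *Cxcl13* sub-cluster, so the order of the libraries differed between them.

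In MG all chains were counted at a low level. *C1qa* gave 7.17 (6.64 to 7.74) CPM in MG of the control, 5.53 (5.02 to 6.08) of CCA and 4.85 (4.31 to 5.43) of CCANT. *C1qb* gave 5.396, 3.79 and 3.697 CPM and *C1qc* 4.000, 2.76 and 2.399 CPM. The summed chains in MG were 0.106%, 0.0774% and 0.0728% of the level in microglia-like cells of the same library. Other microglial genes stood near that percentage of their own microglial level, *Csf1r*, the receptor that keeps microglia alive, at 0.101%, 0.0963% and 0.07397%, and *Trem2*, a lipid receptor, at 0.0928%, 0.0864% and 0.0655%. *P2ry12*, a receptor for nucleotides, stood apart at 5.13%, 4.05% and 2.78%.

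Neurons carried C1q UMIs as well. The summed chains reached 26.7, 29.00 and 43.7 CPM in rods, 20.4, 13.8 and 12.4 in bipolar cells and 34.8, 11.5 and 22.2 in amacrine cells. *C1qa* made up 43.3%, 45.8% and 44.3% of the C1q UMIs of MG, 45.2%, 44.4% and 45.5% of those of rods and 46.3%, 44.6% and 45.2% of those of microglia-like cells, while in amacrine cells it made up 37.6%, 42.03% and 39.8%. *C1qb* made up 32.6%, 31.4% and 33.8% of the C1q UMIs of MG and 27.8%, 30.1% and 29.5% of those of microglia-like cells, and in the control their intervals did not overlap. In microglia and macrophages *C1qa* made up 43.2%, 44.7% and 44.5% and *C1qb* 32.6%, 31.8% and 32.6%, and the MG shares of both lay within overlapping intervals of these in every library. At 8000 UMIs 5.77%, 4.69% and 3.82% of MG held a *C1qa* UMI, against 12%, 6.38% and 6.67% of rods. Without thinning 16.4%, 11.05% and 9.33% of MG and 6.11%, 5.81% and 4.76% of rods did. Median depth before thinning was 5071, 4966 and 5074 UMIs in rods, of which 50, 94 and 105 cells reached 8000, while 27, 76 and 40 MG were left out as too shallow. The share in MG at 8000 UMIs lay below that in rods, with overlapping intervals in every library. At 4000 UMIs it was 2.88%, 2.43% and 2.01% in MG, 4.65%, 4.497% and 4.27% in rods and 2.51%, 1.81% and 2.35% in amacrine cells, with overlapping intervals for MG and amacrine cells in every library and for MG and rods in the control. The rods compared at 8000 UMIs were only the deepest of 851, 1360 and 1323 rods. The source of the C1q UMIs in MG was not tested.

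**Figure D1:**
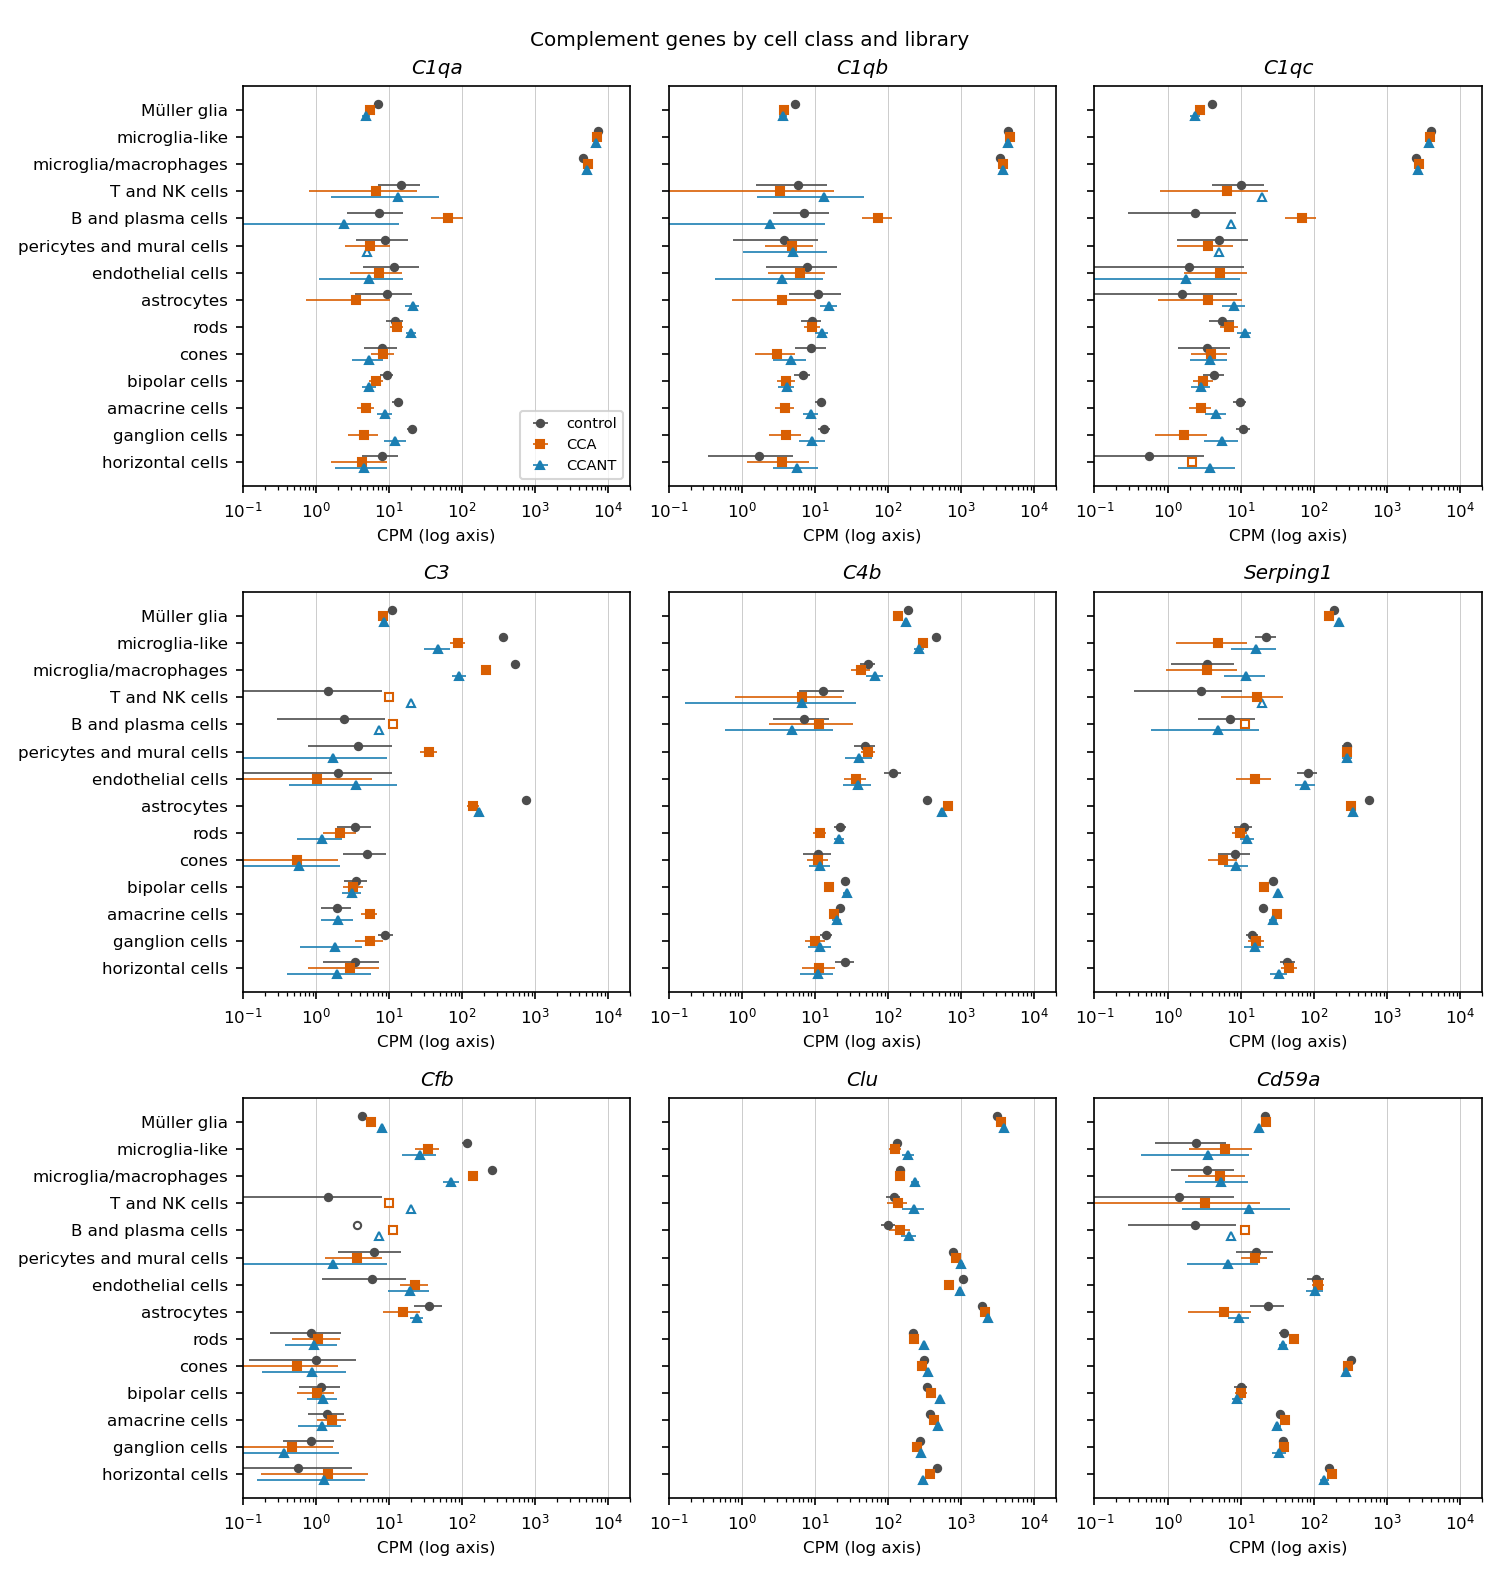
Level of each gene (CPM, log axis) in 14 cell classes of the control, CCA and CCANT libraries, with exact 95% Poisson intervals as bars; open symbols mark classes with 0 UMIs and stand at the level of 3 UMIs. The C1q chains stand between 2533 and 7240.1 CPM in the microglial classes, *Clu* is highest in Müller glia, *Cd59a* in cones, and *C3* in astrocytes or the microglia and macrophage cluster.

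**Figure D2:**
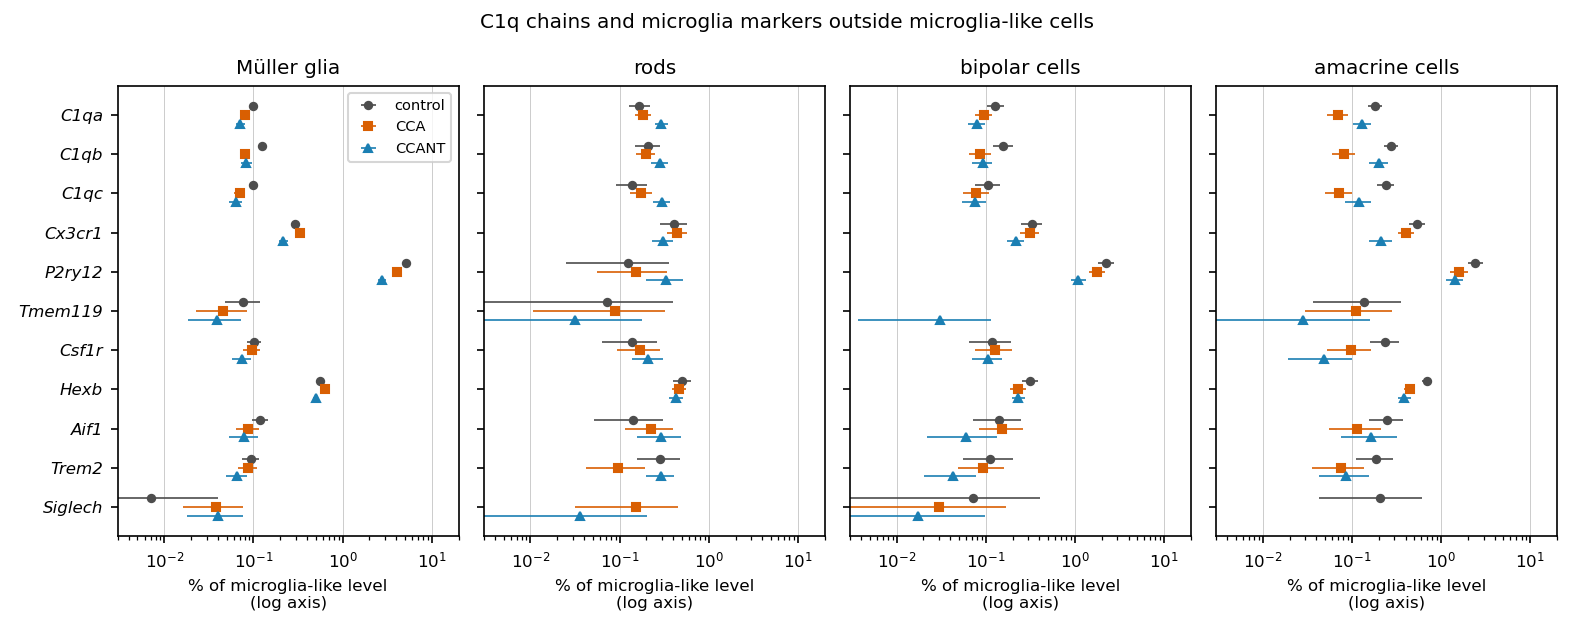
Level of the C1q chains and of 8 microglia markers in Müller glia, rods, bipolar and amacrine cells as a percentage of the level in microglia-like cells of the same library (log axis), with exact 95% intervals; genes with 0 UMIs have no symbol. In control Müller glia *Csf1r* lies at 0.101% and *P2ry12* at 5.13%.

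The C1q sum in MG was lower in both treated libraries, by a log2 ratio to the control of −0.46 (−0.57 to −0.34) with CCA and −0.60 (−0.73 to −0.47) with CCANT. The 8 microglia markers together stood at 53.5, 53.1 and 54.00 CPM in the same cells. How much of the C1q difference came from RNA of other cells was not tested.

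*C4b*, the classical pathway component that C1 cleaves, was found in MG, astrocytes and microglia-like cells. Astrocytes and microglia-like cells held more of it than MG in every library. It was counted at 189 (186 to 192) CPM in MG of the control, 135 (133 to 138) of CCA and 177 (174 to 181) of CCANT. The log2 ratio was −0.48 (−0.52 to −0.45) between CCA and control, −0.09 (−0.13 to −0.06) between CCANT and control and 0.39 (0.35 to 0.43) between CCANT and CCA. CCA MG were thus lowest. Astrocytes, the glia of the nerve fibre layer, held 347, 661 and 544 CPM, with the control lowest, and microglia-like cells 461, 300.4 and 265 CPM, with the control highest. At 8000 UMIs a *C4b* UMI was found in 67.8%, 53.7% and 64.7% of MG and in 8%, 7.45% and 12.4% of rods. *C4a* shares 17.01% of the 90-base windows of the last 1000 bases of *C4b*. Reads from these windows could have been left out of both counts, and the split between the genes is uncertain.

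*C3*, on which all pathways meet, was rare in MG. It stood at 11.1 (10.4 to 11.8) CPM in MG of the control, 8.23 (7.604 to 8.88) of CCA and 8.66 (7.93 to 9.43) of CCANT, and the log2 ratios to the control were −0.43 (−0.57 to −0.29) and −0.35 (−0.51 to −0.20). These values rest on an unnamed cluster led by *Lcn2* that is described further on: in the MG clusters of the wider set, which have no tdTomato requirement and leave that cluster out, CCA over control gave 0.04 (−0.20 to 0.29). In the cells of those clusters that the authors kept, *C3* stood at 2.19, 2.46 and 2.68 CPM, so the control was not highest with the requirement in place either. At 8000 UMIs 3.63%, 3.83% and 4.14% of MG held a *C3* UMI, against 0%, 3.19% and 0% of rods, where 0 of 50 control cells has an upper bound of 7.11% by Clopper-Pearson. The transcript was concentrated in few cells: the 1% of MG with the most of it (38, 37 and 29 cells) carried 65.97%, 53.2% and 47.4% of its UMIs, and a single control cell held 50. The 1% of MG with the most *C4b* carried 4.398%, 6.52% and 5.41% of the *C4b* UMIs.

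Astrocytes held 747 (681 to 817) CPM of *C3* in the control, 143 (118 to 170.4) with CCA and 172 (159 to 185) with CCANT, from 15, 33 and 143 cells, so the control value rests on few cells. Its log2 ratio to the control was −2.39 (−2.69 to −2.10) and −2.12 (−2.29 to −1.95). A *C3* UMI was found in 86.7%, 54.5% and 48.95% of astrocytes at 8000 UMIs. Pericytes and mural cells, which wrap the small vessels, held 3, 58 and 1 *C3* UMIs.

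In microglia-like cells *C3* stood at 365 (337 to 396) CPM in the control, 86.9 (67.96 to 109) with CCA and 46.2 (30.1 to 67.6) with CCANT, from 594, 72 and 26 UMIs. CCA over control gave a log2 ratio of −2.07 (−2.45 to −1.72), and CCANT over control one of −2.98 (−3.61 to −2.42). The control was highest in each microglial cluster, at 209, 27.9 and 17.8 CPM with *Siglech*, 467, 150.2 and 158 with *Cxcl13* and 533, 215 and 90.8 in microglia and macrophages. *Cfb* was likewise highest in the control, at 117 (101 to 135), 33.8 (22.4 to 48.8) and 26.6 (14.9 to 43.9) CPM in microglia-like cells (190, 28 and 15 UMIs) and 254, 143 and 70.2 CPM in microglia and macrophages. In microglia-like cells 3 of the 7 members with enough UMIs, *C3*, *Cfb* and *C4b*, were lower past 1.5-fold in CCA, where 15.7% of all genes passed it and 8.87% downward. The same 3 were lower in CCANT, with backgrounds of 19.9% and 9.98%. For *C4b* this did not hold in each cluster. It stood at 368 (322 to 418), 184 (146 to 229) and 185 (147 to 229) CPM in the *Siglech* sub-cluster, at 522 (478 to 569.5), 425 (364 to 494) and 579 (448 to 736) CPM in the *Cxcl13* sub-cluster and at 52.7 (41.5 to 65.96), 42.5 (31.4 to 56.2) and 65.9 (50.4 to 84.7) CPM in microglia and macrophages, so that CCANT was above the control in the latter pair, with intervals that overlap. The *Cxcl13* sub-cluster had 43, 20 and 6 cells and the *Siglech* sub-cluster 35, 22 and 34, so the mix of the 2 changed along with the summed *C4b* level. The sum of 11 markers of T, B and plasma cells was also highest in the control. It was 237 (214 to 262), 147 (122 to 176) and 167 (135 to 204) CPM in microglia-like cells and 260.0, 141 and 158 CPM in microglia and macrophages. In the latter *Ighm* was at 126, 121 and 129 CPM and *Igkc* at 128, 19.95 and 27.01 CPM. Most of the sum in microglia-like cells was *Ighm*, at 164, 129 and 124 CPM, and *Igkc*, an antibody light chain, at 64.6, 14.5 and 31.95 CPM. There *Cd3e*, *Gzma* and *Cd8a* were at 0 and *Cd79a* had 0, 1 and 3 UMIs. In the *Siglech* sub-cluster *Igkc* was at 73.2, 9.32 and 37.8 CPM and in the *Cxcl13* sub-cluster at 58.9, 20.02 and 8.77 CPM. Only 2, 9 and 5 microglia-like cells held no UMI of any of the 11, and in these the log2 ratio of CCA to control was −0.36 for *C3* and −3.17 for *Cfb*. The part of such RNA in the *C3* and *Cfb* values was not tested. The MG markers summed to 10718, 11959.7 and 19845 CPM in microglia-like cells, but that list holds *Apoe*, which microglia express too, and *Clu* stood at only 133, 125 and 188 CPM, so the sum does not measure a share of MG RNA. The part of MG RNA in these values was not tested.

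*Cfb* was rare in MG, and its summed level was higher in the treated libraries there. MG held 4.296 (3.89 to 4.73) CPM in the control, 5.61 (5.095 to 6.15) with CCA and 8.07 (7.37 to 8.81) with CCANT. The log2 ratio was 0.38 (0.19 to 0.58) between CCA and control, 0.91 (0.72 to 1.10) between CCANT and control and 0.52 (0.34 to 0.71) between CCANT and CCA. A few cells carried much of it: the 1% of MG with the most *Cfb* held 44.8%, 58.5% and 29.3% of its UMIs, and a single CCA cell held 37. Without thinning, 6.13%, 5.58% and 11.4% of MG held a *Cfb* UMI at median depths of 24229, 20788 and 20516 UMIs, and the order of control and CCA was the other way round at equal depth, with intervals that overlap. The direction of the summed level was opposite to that in the microglial classes. It depended on the cells taken for CCA over control. In the MG clusters of the wider set the log2 ratio was 0.10 (−0.11 to 0.31). Those clusters leave out the unnamed cluster led by *Lcn2*, of which the authors kept 212, 437 and 565 cells. With that cluster joined to them the ratio was −0.04. At that equal depth of 8000 UMIs 2.41%, 2.71% and 5.43% of MG held a *Cfb* UMI, against 1.26%, 0.564% and 0.893% of bipolar cells, and in neurons the level lay between 0.371 and 1.67 CPM. *Gm20547*, which is no feature of these files, overlaps *Cfb* and its neighbour *C2* on the same strand, so its reads would not be told apart from theirs.

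Among the inhibitors, *Serping1* was found in glia and vessel-wall cells. MG held 187 (185 to 190.1) CPM in the control, 163 (160.3 to 166) with CCA and 223 (219 to 227) with CCANT, and the log2 ratios to the control were −0.20 (−0.23 to −0.17) and 0.25 (0.22 to 0.28). CCA was lowest, as for *C4b*, and CCANT highest. Pericytes held 282 (246 to 321), 289 (264 to 316) and 285 (244 to 332) CPM, with intervals that overlap, and astrocytes 565, 318 and 344 CPM. Microglia-like cells held 36, 4 and 9 UMIs. A *Serping1* UMI was found in 62.4%, 62.1% and 74.05% of MG and in 12.97%, 11.7% and 11.5% of bipolar cells at 8000 UMIs.

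*Clu*, a secreted chaperone that also blocks the membrane attack complex, was higher in MG than in any of the other 13 classes in each library. Its level was 3090.2 (3079 to 3101) CPM in MG of the control, 3522 (3509 to 3535) of CCA and 3901 (3886 to 3917) of CCANT, a log2 ratio to the control of 0.19 (0.18 to 0.20) and 0.34 (0.33 to 0.34). Astrocytes held 1942, 2110.2 and 2344 CPM and pericytes 781, 862 and 999.7 CPM, with the libraries in the same order as in MG. Microglia-like cells held 133, 125 and 188 CPM.

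*Cd59a*, a membrane protein that blocks pore assembly, was highest in neurons and endothelium. Cones held 326 (302 to 352), 294 (277 to 313) and 279 (261 to 297) CPM, horizontal cells 162, 177 and 139.8 CPM and endothelium 107, 115 and 103 CPM. MG held 21.8, 22.1 and 17.9 CPM, with a log2 ratio to the control of 0.02 (−0.07 to 0.11) and −0.28 (−0.39 to −0.18). The microglial classes held 2 to 6 UMIs per library.

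Set against each other, microglia-like cells and MG of the control library differed past 4-fold for 8 of the 9 genes, where 33.9% of all genes did. *C1qa*, *C1qb*, *C1qc*, *C3* and *Cfb* were higher in microglia-like cells (background 8.10%) and *Serping1*, *Clu* and *Cd59a* in MG (25.8%). *C4b* stayed within 4-fold. In the CCA and CCANT libraries 7 genes differed each (backgrounds 36.9% and 34.7%).

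The 9 genes past 1.5-fold between libraries in MG were counted beside the share of all genes past it. For CCA over control 0 of 9 did, where 14.2% of all genes did, 11.0% upward and 3.20% downward. For CCANT over control *Cfb* was higher and *C1qc* lower, 2 of 9, with a background of 15.6%, of which 10.0% upward and 5.62% downward. For CCANT over CCA 0 of 9 did (background 8.53%). The counts depended on which MG were taken. In the MG clusters of the wider set they were 2 for CCA over control, *C4b* and *C1qc*, both lower (background 16.6%), and 4 for CCANT over control, *Cfb* higher and the 3 C1q chains lower (background 15.5%). With the CCANT cells limited to those with Y-linked UMIs, CCANT over control also had 4, *Cfb* higher and *C1qc*, *C3* and *Cd59a* lower (background 16.6%). The median log2 ratio of the 9 genes was −0.38, −0.28 and 0.07 in these comparisons, beside 0.06, 0.03 and −0.04 over all genes tested. The first 2 share their control library. Different clusters hold most of the MG: clusters 3, 4 and 1 in the control (1510, 1054 and 686 cells) and clusters 1 and 2 in CCA (1177 and 833 cells), while cluster 2 held 1019 CCANT cells.

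**Figure D3:**
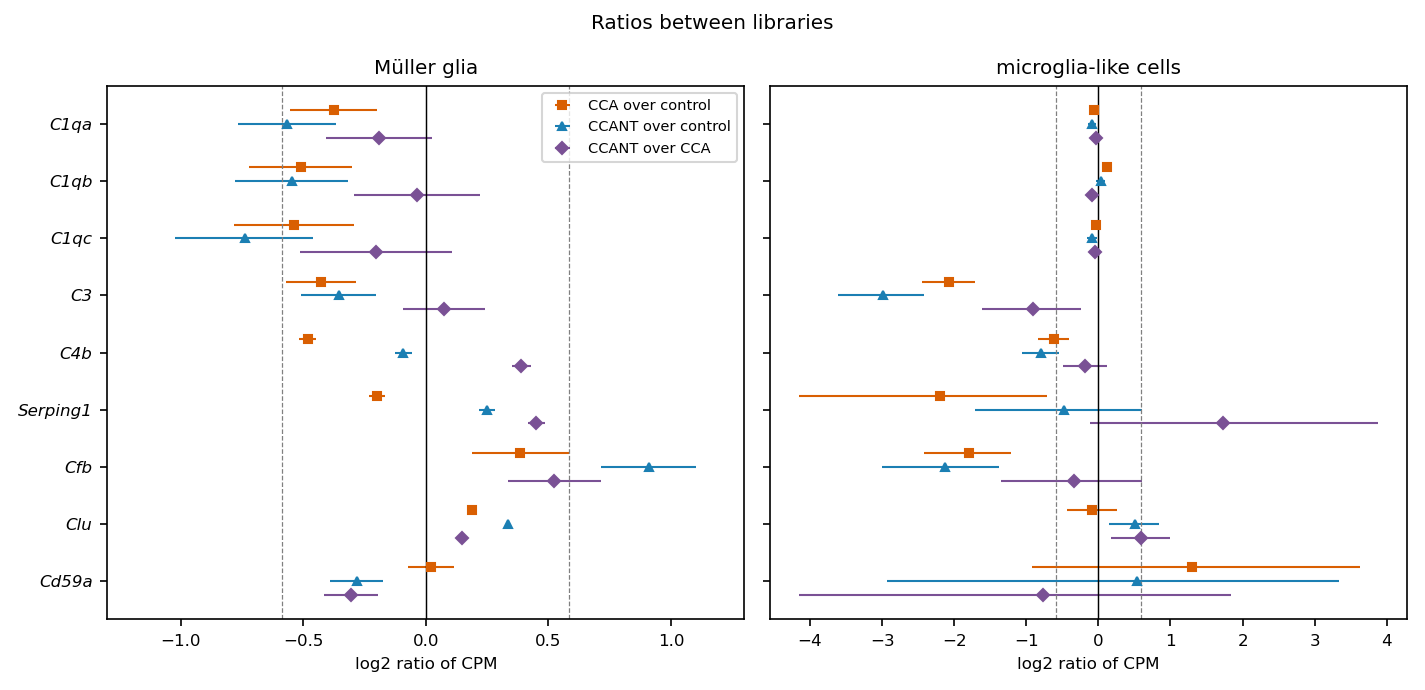
Log2 ratio of the level of each gene between libraries in Müller glia (left) and in microglia-like cells (right), with exact 95% intervals for counting error; dashed lines mark 1.5-fold, and the axes of the panels differ. For CCANT over control *Cfb* stands at 0.91 in Müller glia and at −2.13 in microglia-like cells, where *C3* stands at −2.98.

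Both sexes were present in CCANT and could be compared there. CCANT MG with Y-linked UMIs (1001 cells) had more *Cfb* than those with *Xist* (1520 cells), 9.78 against 6.48 CPM, a log2 ratio of 0.59 (0.31 to 0.88). They had less *Cd59a*, 14.4 against 19.96 CPM, and less *C3*, 7.11 against 9.13 CPM. *Cfb* was the 1 gene of the 9 past 1.5-fold (background 4.14%). Against control MG, Y-linked CCANT MG had log2 ratios of 1.19 (0.94 to 1.43) for *Cfb*, −0.64 (−0.89 to −0.39) for *C3* and −0.60 (−0.78 to −0.43) for *Cd59a*. Against CCA MG, *Xist* CCANT MG had log2 ratios of 0.21 (−0.04 to 0.45) for *Cfb*, 0.43 (0.38 to 0.47) for *C4b* and 0.49 (0.44 to 0.53) for *Serping1*. Within cells of like sex *Cfb* thus stood above the control, while its interval between CCANT and CCA spanned 0.

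The largest share of *C3* UMIs lay in a cluster of the wider cell set that took no name. It was led by *Lcn2*, a protein of reactive glia, is called the Lcn2 cluster here, and was picked for description after its *C3* level had been seen. It held 374, 592 and 973 cells, and all 9 MG markers were raised in it, but none stood among its 10 leading genes. The MG markers summed to 22803, 23880.3 and 25118 CPM, near the 24147, 23678 and 25702 CPM of the MG clusters. The astrocyte markers summed to 70.6, 53.2 and 78.1 CPM, against 1953, 2382 and 2277 CPM in astrocytes. A tdTomato UMI was found in 61.2%, 78.5% and 62.1% of its cells.

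In the Lcn2 cluster *C3* stood at 268 (258 to 278), 82.1 (77.3 to 87.03) and 51.9 (49.01 to 54.98) CPM, and the cluster held 44.9%, 43.5% and 40.6% of all *C3* UMIs of the filtered cells. In the MG clusters of the same cell set *C3* was at 2.48 (2.21 to 2.77), 2.56 (2.25 to 2.89) and 2.38 (2.06 to 2.73) CPM, with intervals that overlap. The Lcn2 cluster thus lay 108-fold, 32.1-fold and 21.8-fold above them. *Cfb* was 13.03-fold, 6.96-fold and 3.17-fold, *Serping1* 3.44-fold, 2.35-fold and 1.87-fold and *C4b* 1.65-fold, 1.69-fold and 1.21-fold higher in it, while the summed C1q chains were at 18.6, 14.8 and 11.5 CPM, against 17.4, 12.5 and 10.6 CPM in the MG clusters. *C3* is left out of the count, since its level had led to the choice of the cluster. Of the other 8 genes 3, 3 and 2 were past 1.5-fold, all higher, with backgrounds of 24.5%, 21.1% and 17.5%.

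Within the Lcn2 cluster all 9 genes were highest in the control. *C3* had log2 ratios to the control of −1.71 (−1.81 to −1.61) and −2.37 (−2.47 to −2.27). *Cfb* had −0.81 (−1.02 to −0.60) and −1.08 (−1.28 to −0.89), and *Serping1* had −0.79 (−0.85 to −0.73) and −0.72 (−0.77 to −0.67). Of the 8 genes other than *C3*, 2 were past 1.5-fold with CCA, both lower (background 10.7%, 3.37% downward), and 5 with CCANT, all lower (11.5% and 4.02%). The pair with CCA was *Cfb* and *Serping1*. With CCANT it was these and *C1qa*, *C1qb* and *C1qc*. The C1q chains stood at 0.656, 0.571 and 0.629 of the control level, and their source was not tested. GFP and *Lcn2* were also highest in the control, GFP at 111, 4.28 and 4.57 CPM and *Lcn2* at 1819, 334 and 314 CPM. *Gfap* went the other way, at 190.4, 267 and 258 CPM. Control eyes received the GFP vector alone and the others 1 part of it in the mixture, and the part of GFP, *Lcn2* or *Gfap* in the *C3* values was not tested.

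**Figure D4:**
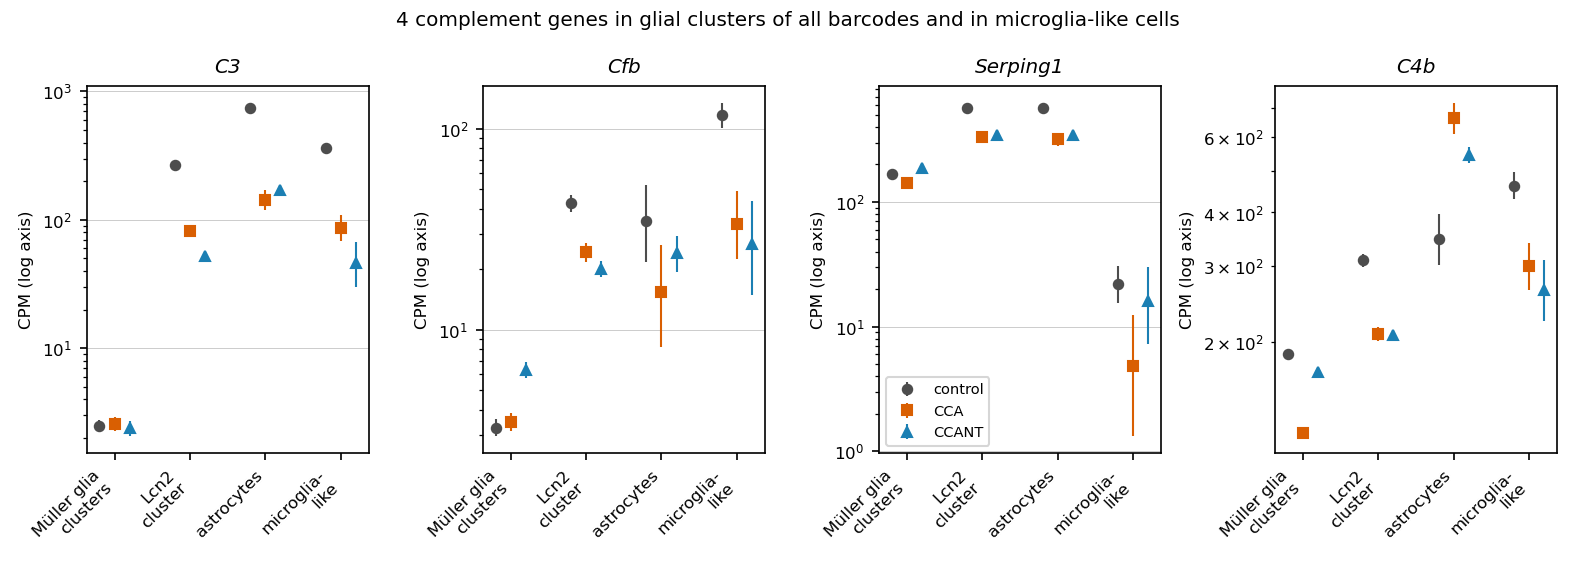
Level (CPM, log axes that differ between panels) of *C3*, *Cfb*, *Serping1* and *C4b* in the Müller glia clusters, the unnamed Lcn2 cluster, astrocytes and microglia-like cells of the 3 libraries, with exact 95% intervals. *C3* stands between 2.38 and 2.56 CPM in the Müller glia clusters, and is highest in the control in the Lcn2 cluster, astrocytes and microglia-like cells.

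Among the kept MG too, *C3* and *Cfb* were unevenly spread. In the control, cluster 4 (1054 cells, led by interferon genes) held 63.1% of the *C3* UMIs and 61.1% of the *Cfb* UMIs. Cluster 2 (129 cells) held 25.1% of the control *C3* UMIs in 3.47% of the cells, with *Gfap*, a filament protein of reactive glia, at 109 CPM. *C3* was at 23.9 CPM in cluster 4 and 85.1 CPM in cluster 2, against 1.44 and 1.73 CPM in clusters 3 and 1. In the treated libraries cluster 2 (833 and 1019 cells) held 60.4% and 62.4% of the *C3* UMIs. *Serping1* was graded less steeply, at 301, 242 and 288 CPM in cluster 2 and 80.95, 99.1 and 146 CPM in cluster 1.

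Control MG were also divided by GFP, the reporter of the control virus, after thinning to 8000 UMIs, into 2735 cells with 0, 671 with 1 and 284 with at least 2 GFP UMIs. *C3* stood in these at 7.06, 14.1 and 41.6 CPM, a log2 ratio of 2.56 (2.35 to 2.77) between the last and the first. *Serping1* stood at 165, 215 and 334 CPM and *Cfb* at 3.496, 5.33 and 9.32 CPM. These 3 genes were higher past 1.5-fold, and *C1qc*, with 19 UMIs in the last group, was lower past it (background 10.3%). The log2 ratio was 0.38 (0.31 to 0.45) for *C4b*, −0.05 (−0.29 to 0.19) for *Cd59a* and −0.14 (−0.43 to 0.14) for the C1q sum. *Gfap* stood at 18.3, 23.2 and 63.4 CPM. The astrocyte markers stood at 14.4, 15.2 and 25.9 CPM, with a log2 ratio of 0.85 (0.62 to 1.07), and their part in the *C3* values was not tested. All these cells are from 1 library, and virus dose, use of the *GFAP* promoter and *C3* cannot be told apart.

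**Figure D5:**
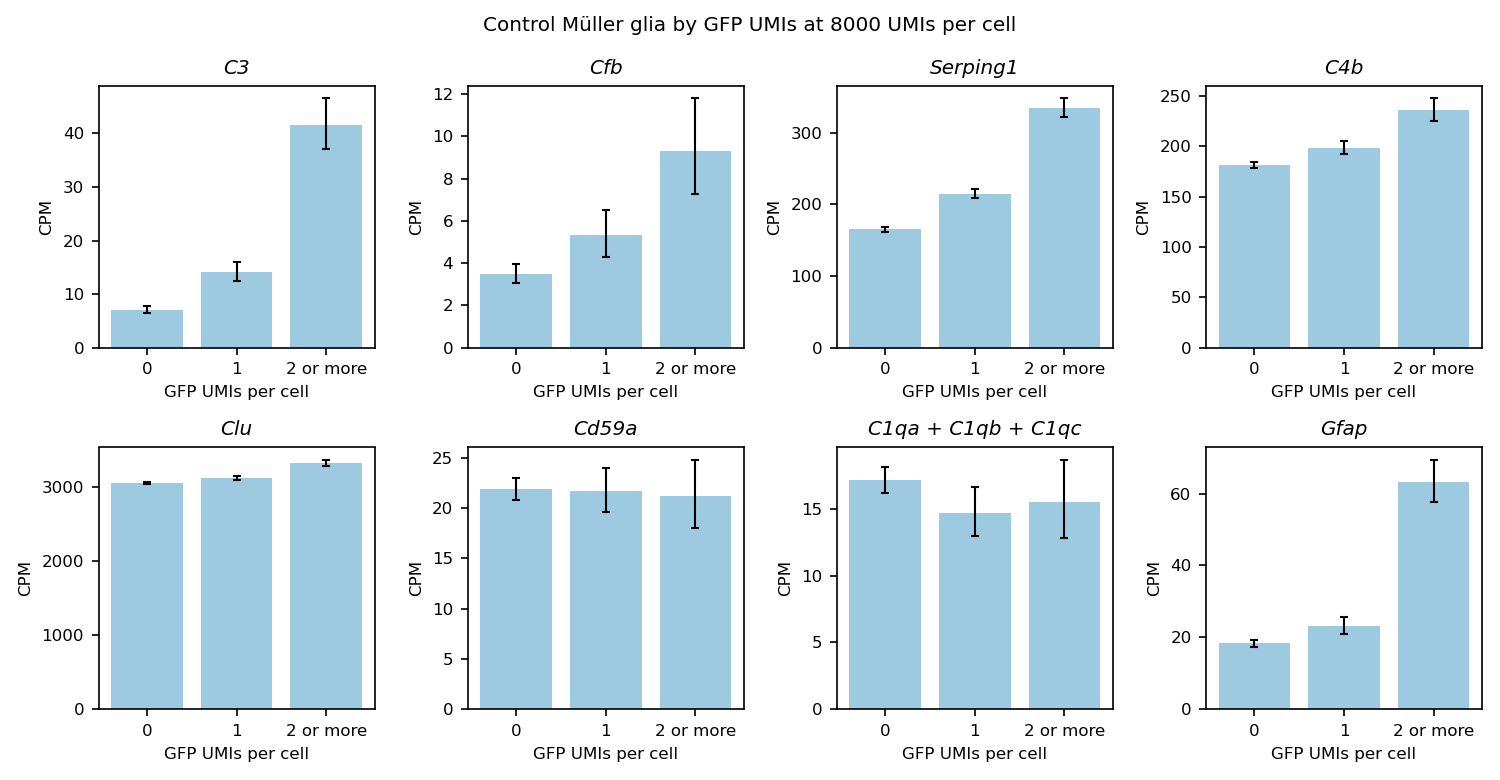
Level (CPM) of 6 complement genes, of the summed C1q chains and of *Gfap* in control Müller glia with 0, 1 or at least 2 GFP UMIs at 8000 UMIs per cell, with exact 95% Poisson intervals as error bars. *C3* goes from 7.06 to 41.6 CPM, while the intervals of *Cd59a* and of the C1q sum overlap.

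Cycling MG, found in both treated libraries, had less *C4b* and *Clu* than the other MG of their library. In CCA (343 against 3314 cells) *Clu* stood at 2465 against 3647 CPM and *C4b* at 101 against 139.5. In CCANT (105 against 2736 cells) *Clu* stood at 2824 against 3951 CPM and *C4b* at 104 against 181. Past 1.5-fold were 0 of the 9 genes in CCA (background 30.8%) and 2 in CCANT (background 33.1%), *C4b* and, with 6 UMIs, *C1qb*. Markers of other cells moved with this split. Rod markers stood at 615 against 347 CPM in CCA and 876 against 469 CPM in CCANT, and astrocyte markers at 44.3 against 22.2 CPM and 96.6 against 32.6 CPM. *Gfap* stood at 32.3 against 78.8 CPM and 47.2 against 97.5 CPM, lower in cycling MG, and the part of these in the *Clu* and *C4b* values was not tested.

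The genes whose levels most resembled each member over the 14 classes of the 3 libraries (42 points that share libraries and depth) were ranked by Pearson's r of log2(CPM + 1) among 13860 genes, as a description. For *C1qa* they were *C1qb* (0.984), *Trem2* (0.978) and *C1qc* (0.978), for *C1qb* *C1qa* (0.984), *Adgre1* (0.982) and *Gm35154* (0.981), and for *C1qc* *C1qa* (0.978), *Csf1r* (0.977) and *Fcgr3* (0.971). The C1q chains were thus nearest to each other and to microglial genes. For *C3* the nearest were *Lamp2* (0.868), *G530011O06Rik* (0.865) and *Cfb* (0.857), and for *Cfb* *Tmem37* (0.902), *Gna12* (0.900) and *Cxcl16* (0.898). *C4b* was nearest to *Cd9* (0.927), *Serping1* to *S1pr3* (0.932), *Clu* to *Sox9* (0.965), a transcription factor of MG, and *Cd59a* to *Zkscan1* (0.935).

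Of the 47 other pathway genes 25 reached 20 CPM in some class and 22 did not, among them *Hc*, which encodes C5, and the pore components *C6*, *C7*, *C8a*, *C8b*, *C8g* and *C9*. The C1 protease genes had their highest level in different classes, *C1s1* in pericytes, at 206, 220.1 and 140.2 CPM, *C1ra* in astrocytes of the control, at 106 CPM, but in pericytes with CCA and CCANT, at 56.2 and 40.5 CPM, and the C1r-like *C1rl* in microglia and macrophages, at 26.4, 15.6 and 27.01 CPM. The regulator *Vtn*, which encodes vitronectin, was a pericyte transcript, at 3025, 2123 and 2589 CPM. Of the receptors, *C3ar1* was at 309, 244 and 330.2 CPM in microglia-like cells and 239, 291 and 403 CPM in microglia and macrophages. In microglia-like cells *C5ar1* was at 121, 142 and 163 CPM and *Itgam*, a subunit of a C3 receptor, at 504, 396 and 506 CPM. Other receptor genes peaked elsewhere, *Itgax* in microglia and macrophages, *Itgb2* in T and NK cells, *Cr2* in B and plasma cells and *Cd93* in endothelial cells.

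In MG 23 of these genes had at least 50 UMIs over control and CCA, of which 2 were higher and 5 lower past 1.5-fold, where 11.0% and 3.20% of all genes were. Over control and CCANT 23 had as many UMIs, of which 4 were higher and 2 lower, where 10.0% and 5.62% of all genes were. *C2*, the classical pathway relative of *Cfb*, was at 1.799, 2.42 and 4.72 CPM, with log2 ratios to the control of 0.43 (0.12 to 0.73) and 1.39 (1.11 to 1.67). *Vtn* was at 5.95, 12.8 and 15.1 CPM and *Csmd1*, a membrane inhibitor, at 13.9, 19.97 and 52.9 CPM. Rod markers in MG stood at 219, 375 and 487 CPM, and the part of RNA from other cells in these values was not tested.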

How the data were processed

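Single-cell 3′ RNA libraries (1 per group) were analysed as deposited. Per the labels and the methods of the study, the authors aligned reads with Cell Ranger 6.1.1 to the mouse genome (mm10) with tdTomato and GFP added, introns included, and deposited for each library a matrix of raw UMI counts by gene and barcode, and a joint count table of 10926 filtered cells.

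From these counts, barcodes formed the wider cell set where they had 2000 or more detected features, no more than 100000 UMIs and no more than 15% mitochondrial UMIs. Cells were clustered (scanpy 1.11.5, Leiden with leidenalg 0.10.2, 2000 variable genes, 20 neighbours) without complement, sex-linked and reporter genes. Clusters were named from marker lists for 16 cell types, by a rule set after the clusters had been seen. Clusters with markers of more than 1 type stayed mixed, and others unnamed. Per the methods of the study, the authors had already removed doublets from the joint table, from which the MG values come. In the wider set, from which the other classes come, doublets were left in, since the automatic threshold of Scrublet made no calls in 2 of the 3 libraries. The classes thus differ in this filter. There, cells with high Scrublet scores were left out as an alternative chosen after seeing the data. The 1 microglial sub-cluster with macrophage markers was kept apart. Cells were assigned a sex by 3 or more UMIs summed over 4 Y-linked genes with no more than 1 of *Xist*, or the reverse.

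Levels are summed UMIs per 1000000. Genes entered a background with at least 50 UMIs over both groups, and past the fold means over 1.5-fold between libraries or 4-fold between classes. Intervals were computed with scipy 1.17.1 and checked on simulated data. The members, the lists and the Lcn2 cluster were chosen with earlier results of these data known, and the PU.1 motif was added after seeing the data. All 9 members and those pathway genes that reached 20 CPM in a class could be named, apart from items that are not reported here.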

Additional observations from a re-analysis of the deposited data

Results flagged for a closer look

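The CCANT over control ratio of *Cfb* went in opposite directions in 2 classes. It was 0.91 (0.72 to 1.10) on the log2 scale in MG, from 491 and 406 UMIs, and −2.13 (−3.00 to −1.38) in microglia-like cells, from 15 and 190 UMIs, a difference of 3.04 log2 units. In the Lcn2 cluster, where all 9 MG markers were raised, the ratio was −1.08 (−1.28 to −0.89). In the MG clusters of the wider set, which leave that cluster out, it was 0.95 (0.77 to 1.14). With 1 library per group none of these differences was tested.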

How the results depend on the processing

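No paired analysis was possible because each group is 1 library and no test was made. Of 180 values under other settings of the members' log2 ratios in MG, 142 moved the value by less than its counting interval, 37 moved it by more than that and 1 turned the direction of a value whose interval had left out 0. Of 54 values of shares of cells with a UMI at other depths, 49 moved by more than the interval and 5 by less, and all 6 background shares at other minimums moved. The direction that turned was that of *C3* for CCA over control, at 0.044 in the MG clusters of the wider set. That setting changes a pair of choices together, since it drops the tdTomato requirement and leaves out the Lcn2 cluster. *Cfb* for CCA over control was 0.098 in those clusters. With the Lcn2 cluster joined to them, an alternative chosen after seeing the data, it came to −0.036.

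The number of members past 1.5-fold for CCA over control, 0 as reported, was 1 with size factors, 2 in the MG clusters of the wider set and 1 when the Lcn2 cluster joined them. For CCANT over control, 2 as reported, it was 4 in those clusters, 4 in Y-linked cells, 4 with the Lcn2 cluster and 0 at a fold of 2. For CCANT over CCA, 0 as reported, it was 1 in those clusters. The C1q log2 ratio of microglia-like cells for CCA over control, −0.00 as reported, was −0.56 in cells without a T, B or plasma cell marker UMI (2, 9 and 5 cells) and 0.27 in the *Siglech* sub-cluster alone. For CCANT over control, −0.06 as reported, it was −0.34 and 0.02 in those cells and −0.10 as a mean over cells. The cause was not tested in these cases. In the cells without a T, B or plasma cell marker UMI, *C3* for CCANT over control gave no value at 0 UMIs. Size factors shifted all genes by −0.06, −0.03 and 0.03 log2 units. Among genes with at least 500 UMIs the background shares in MG were 7.78%, 8.58% and 3.95%, and with no minimum beyond 1 UMI 32.2%, 34.8% and 28.3%. In microglia-like cells *Serping1* (36, 4 and 9 UMIs) and *Cd59a* (4, 5 and 2 UMIs) were too shallow to compare between libraries.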
